A study of Mus musculus with 2 samples.

Results

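The 85 genes described here encode the nuclear subunits of the respiratory chain and of ATP synthase, the machinery of oxidative phosphorylation. They were chosen by symbol and gene type from the GENCODE M21 annotation of the mouse, and no measured value entered the rule. Protein-coding genes were taken whose symbol starts with Nduf and a subunit letter and number, is Sdha to Sdhd, or starts with Uqcr, Cox4 to Cox8 or Atp5, and pseudogene symbols were left out. The rule gave 84 symbols and 85 of 55536 annotated genes, since Atp5o names 2 rows. Subunits under other symbols, such as Cyc1 and Ndufab1, fall outside it. The RNA came from Treg cells, the regulatory class of CD4 T cell, taken from a male mouse aged 9 weeks. It was selected for polyA tails and sequenced as 2 libraries, technical replicates of 1 biological replicate. There is 1 group, so no condition can be compared, and every spread given is technical. No treatment or genetic change is named in the labels, while the strain and the way the cells were sorted are not stated there.

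Oxidative phosphorylation takes electrons from NADH and succinate through complexes I to IV of the inner mitochondrial membrane to oxygen, and the protons pumped on the way drive ATP synthase, complex V. The complexes are built from many subunits made in the cytosol and a few encoded by mitochondrial DNA. Several subunits exist as paralogs used in certain tissues, such as heart and skeletal muscle, lung or testis. Treg cells are known for relying on this pathway more than activated conventional T cells do.

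Library 1 had 34697128 estimated counts on annotated genes and library 2 had 32049199. Detection required at least 1 TPM in each library, where TPM is a level corrected for gene length and scaled to the same total in both. All 7 Treg and T cell markers were detected, from Foxp3 at 109 to Cd3e at 1098 TPM. Markers of other cells were also present: 4 of 4 for B cells (1.66 to 30.8 TPM), 2 of 4 for myeloid cells (highest Lyz2, 13.1 TPM) and 4 of 4 for red cells (23.9 to 134 TPM). Muscle markers reached at most 0.16 TPM, both brown fat markers had 0 counts, and Prm1 was the highest of 3 testis markers at 1.04 TPM. The part of these cells in the values below was not tested.

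Nearly the whole pathway was expressed at high level. Of the 85 genes 78 were detected, beside 48.0% of the 22028 protein-coding genes. In 71 of them both libraries reached 100 TPM, beside 7.97% of all protein-coding genes and 16.6% of the 10583 detected ones. The median over the 85 genes was 197 TPM, and it was 31.1 TPM over detected protein-coding genes, 74 subunit genes lying at or above the latter. Together they took 1.86% of all TPM in library 1 and 1.91% in library 2. In bulk RNA, fewer cells of a type and less RNA per cell cannot be told apart, so these are levels of the preparation. The libraries were close to each other: in 74 of the 78 detected genes the SD was under 10% of the mean.

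**Figure D1:**
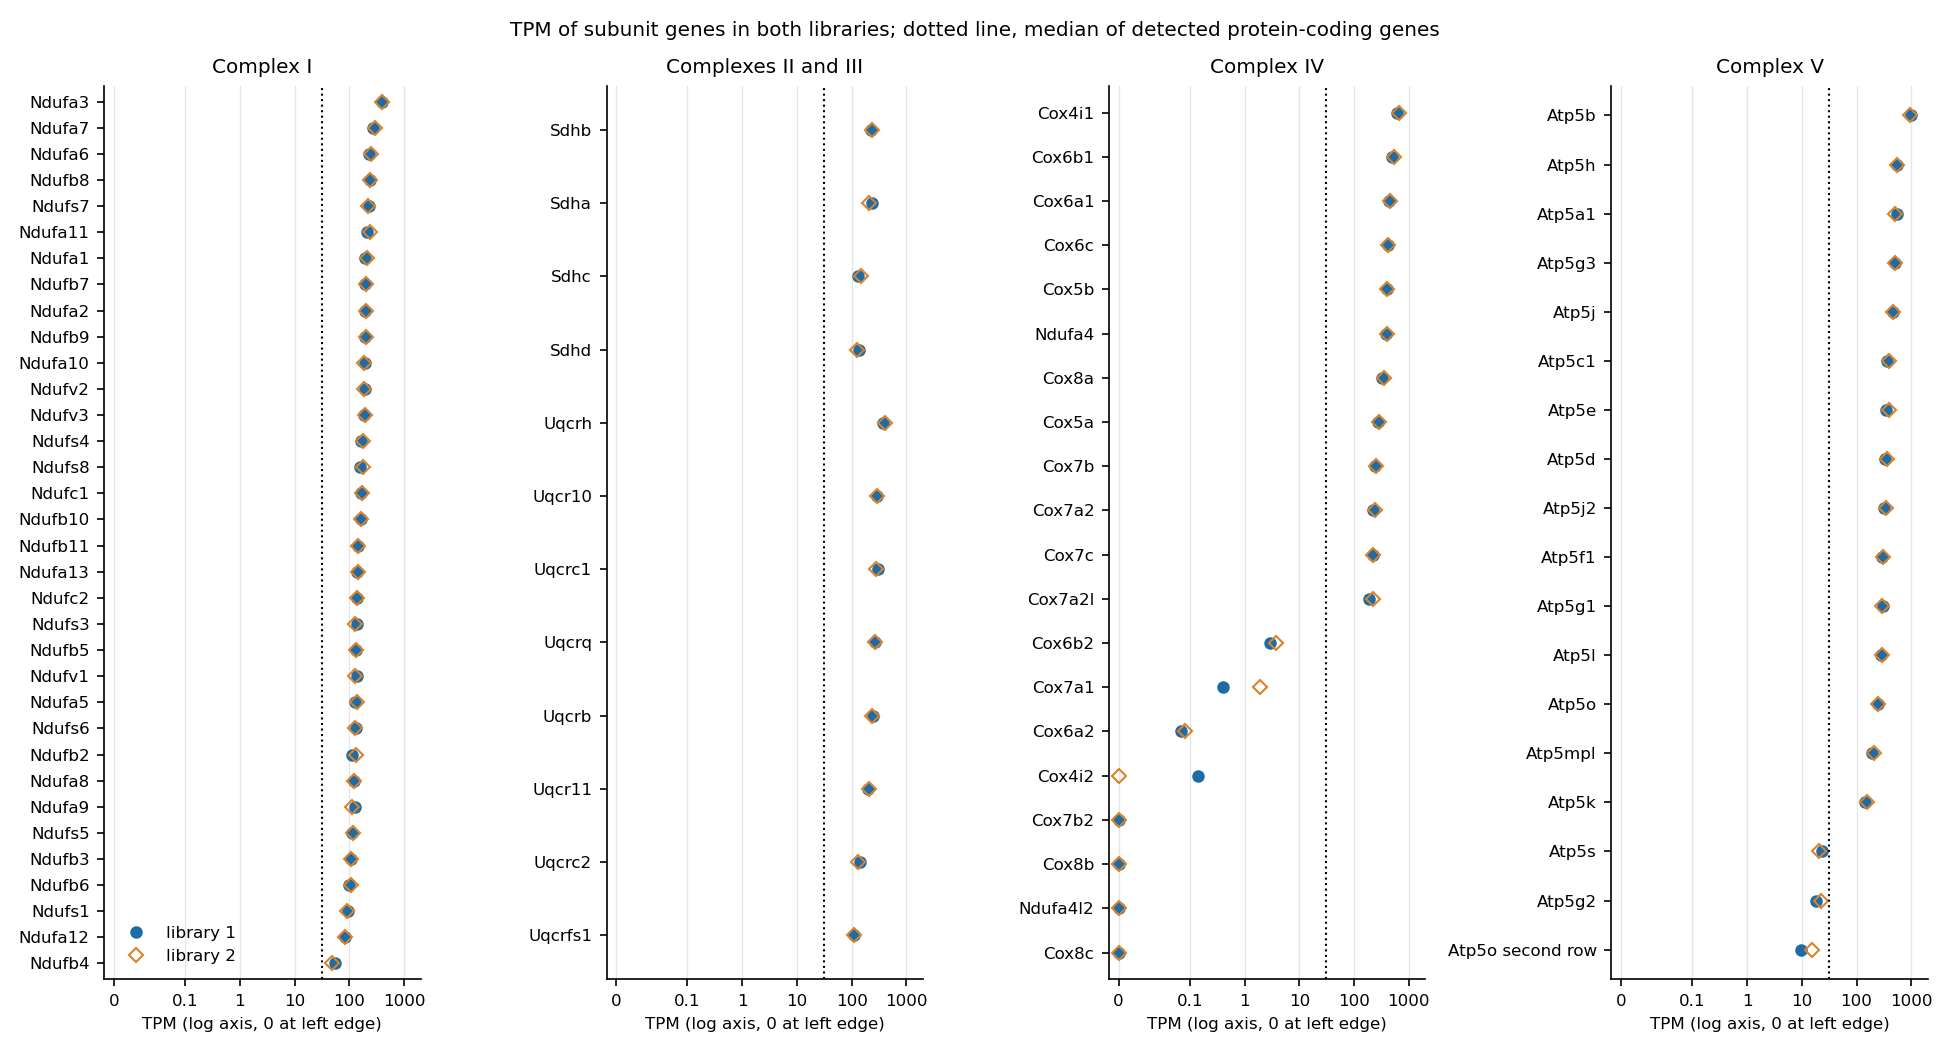
TPM of 84 of the 85 subunit genes (log axis, a value of 0 drawn at the left edge) in library 1 (filled circles) and library 2 (open diamonds), in 4 panels by complex. The complex I, II and III genes drawn all lie to the right of the dotted line, the median of detected protein-coding genes at 31.1 TPM, while 8 genes of complex IV lie far to its left.

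Complex I, which oxidises NADH, was detected in full, 35 of 35 genes, with a median of 155 TPM. Its 7 core subunits carry the flavin and iron-sulfur clusters, and they had the same median, 155 TPM, as against 154 TPM for the 28 accessory subunits. The highest core gene was Ndufs7, an iron-sulfur subunit next to the quinone site, at 228 and 223 TPM in libraries 1 and 2. The lowest was Ndufs1, the largest iron-sulfur subunit, at 93.7 and 88.9 TPM. Core genes thus spanned a ratio of 2.47 ± 0.05 (SD, n = 2 libraries), and the 2 ends did not overlap. Ndufv1, which binds NADH, stood at 137 and 127 TPM, and its partner Ndufv2 at 192 and 188 TPM. Ndufs3 had 136 and 129 TPM, and Ndufs8 had 156 and 178 TPM.

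Among accessory subunits Ndufa3 was highest, at 400 and 393 TPM, which placed it above every other gene of complex I in both libraries. Most of its TPM was assigned to a transcript typed as a target of nonsense-mediated decay, as given below. Ndufa7 followed at 266 and 293 TPM and Ndufa6 at 232 and 249 TPM. Among the Ndufb subunits of the membrane arm, Ndufb8 was highest at 239 and 237 TPM. Apart from Ndufs1, only Ndufa12 at 83.0 and 83.4 TPM and Ndufb4 at 55.8 and 48.7 TPM had means under 100 TPM, and both have a near-identical copy that was also counted. The order within the complex was otherwise loose: in 22 of 34 pairs of neighbours the ranges of the libraries overlapped.

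Complex II, succinate dehydrogenase, joins the citric acid cycle to the chain. Its catalytic subunits were close to each other: Sdha, the flavoprotein, had 233 and 209 TPM, and Sdhb, the iron-sulfur protein, had 224 and 231 TPM. The order of these 2 genes changed between libraries. The membrane anchors were lower, Sdhc at 133 and 148 TPM and Sdhd at 135 and 127 TPM, and neither overlapped with Sdha or Sdhb. Sdhb was 1.74 ± 0.11 times Sdhd.

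Complex III, which passes electrons from ubiquinol to cytochrome c, had all 8 genes detected with a median of 253 TPM. The hinge protein gene Uqcrh was highest, at 373 and 398 TPM. Uqcrfs1, the Rieske iron-sulfur protein and the catalytic subunit of the list, was lowest at 110 and 110 TPM. The core proteins, which shape the matrix side, were unequal: Uqcrc1 had 296 and 282 TPM and Uqcrc2 had 140 and 128 TPM, a ratio of 2.16 ± 0.06. The small subunits Uqcr10 (292 and 286 TPM), Uqcrq (266 and 267 TPM), Uqcrb (242 and 239 TPM) and Uqcr11 (196 and 205 TPM) lay between Uqcrh and Uqcrc2. In 6 of 7 pairs of neighbours in this complex the libraries did not overlap.

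Complex IV, cytochrome c oxidase, held the widest range. Its 11 ubiquitous subunits had a median of 390 TPM. Cox4i1, the regulatory subunit that is the largest of the nuclear ones, stood at 617 and 661 TPM (chr8:120668222-120674207, mm10). Cox6b1, on the side facing cytochrome c, had 485 and 540 TPM, and Cox6a1 had 439 and 456 TPM. Cox6c (409 and 421 TPM), the zinc-binding Cox5b (395 and 407 TPM) and Ndufa4 (378 and 403 TPM) followed. Ndufa4 carries a complex I name and is now placed with complex IV. Cox8a had 325 and 357 TPM, Cox5a 272 and 282 TPM, Cox7b 242 and 254 TPM, Cox7a2 221 and 237 TPM and Cox7c 218 and 217 TPM. Cox7c, the lowest of these as listed, has near-identical copies, and with their TPM added the sum was 595 and 626 TPM. The sum holds 284 and 329 TPM from 860 and 966 counts on Gm12338, a shorter row. Cox7c itself had 1844 and 1798 counts, so the sum gives no rank among the genes as listed. Cox7a2l, which joins complexes III and IV into supercomplexes, had 189 and 217 TPM.

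Complex V, ATP synthase, had a median of 315 TPM and all 18 rows detected. Atp5b, the catalytic beta subunit of the F1 head, was the highest of the 85 genes at 1010 and 957 TPM (chr10:128083273-128090391). Atp5a1, the alpha subunit, which the enzyme holds in as many copies as beta, had 549 and 504 TPM. The beta message was thus 1.87 ± 0.04 times the alpha message. The head subunits present in single copy, Atp5c1 (gamma, 366 and 390 TPM), Atp5e (epsilon, 346 and 397 TPM) and Atp5d (delta, 334 and 354 TPM), were close to each other, the range of Atp5e overlapping both others. Atp5b was 2.61 ± 0.22 times Atp5c1, and Atp5a1 was 1.40 ± 0.15 times Atp5c1.

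The peripheral stalk, which holds the head still, was uneven. Atp5h had 544 and 547 TPM, Atp5j had 458 and 464 TPM, Atp5f1 had 295 and 307 TPM and Atp5o, the protein that links stalk and head, had 250 and 249 TPM. By TPM Atp5h was 2.18 ± 0.02 times Atp5o, where the spread is that of the 2 libraries only. The older M4 counts, described below, were 5.75% and 5.47% of the M21 estimate for Atp5h. For Atp5o they were 21.2% and 22.1%, so on M4 counts, not corrected for length, Atp5o was the higher. The small subunits of the membrane part were Atp5j2 (311 and 346 TPM), Atp5l (281 and 293 TPM), Atp5mpl (193 and 212 TPM) and Atp5k (144 and 153 TPM). Atp5s, named as a coupling factor of the enzyme, was far lower at 23.2 and 20.4 TPM. A second row named Atp5o (chr16:91684398-91926982) had 9.82 and 15.1 TPM. It overlaps Atp5o itself (chr16:91925214-91931687), Donson and Cryzl1 on the same strand, and its posterior SD was 34.1% and 24.6% of its count, so its level is uncertain.

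Set against the median of detected protein-coding genes, the median of complex I was 4.996 ± 0.395 times as high (SD, n = 2 libraries). The ratio was 5.81 ± 0.21 for complex II and 8.15 ± 0.31 for complex III. It was 7.18 ± 0.47 for all 20 genes of complex IV and 10.1 ± 0.85 for complex V. Complexes I and II therefore lay below III, IV and V in both libraries. The place of complex IV depends on its undetected isoforms: with detected members only its ratio was 10.98, above complexes III and V. Short messages tend to stand high in TPM in these tables: detected protein-coding genes under 500 bases had a median of 130 TPM and those of 1000 bases or more 29.1 TPM. Subunit genes were above those medians in each class, with 240 TPM for the 21 genes under 500 bases and 179 TPM for the 16 of 1000 bases or more.

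The paralogs known from other tissues were almost silent. Of the 8 tissue isoforms of complex IV only Cox6b2 was detected, while each ubiquitous partner stood above 200 TPM in both libraries. Cox6b2, the testis form of Cox6b1 (chr7:4751792-4753094), had 25 and 34 counts, or 2.88 and 3.68 TPM, which was 0.633% ± 0.061 of the summed TPM of the pair. By M4 counts, 16 and 28 for Cox6b2, the share was 3.93% ± 1.42. The transcript that led in library 1, the retained intron Cox6b2-205, held 42.9% of the gene's TPM there, and Cox6b2-207, a target of nonsense-mediated decay, led in library 2 with 32.2%. Cox7a1, the form of heart, skeletal muscle and brown fat, had 3 and 14 counts, at 0.41 and 1.87 TPM. It passed 1 TPM only in library 2 and so was not called detected.

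Cox4i2, the lung form of Cox4i1, was hit by 2 reads in library 1 and none in library 2, beside 7441 and 7671 for Cox4i1. In library 1 this was 0.027% of the counts of the pair, with an exact 95% binomial interval of 0.0033% to 0.097%. Cox6a2, the form of heart and skeletal muscle, had 1 count in each library beside 4865 and 4902 for Cox6a1. Its share was 0.021% in library 1, with an exact interval of 0.00052% to 0.11%. Such intervals cover counting error only, and reads copied by PCR are not independent.

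No count fell on 4 rows in either library: Cox7b2 (testis), Cox8b (heart, skeletal muscle and brown fat), Cox8c (testis) and Ndufa4l2, a form of Ndufa4 known to be induced by low oxygen. For a count of 0 a floor of 3 counts in a library was set. The folds below hold against that floor and cover counting error only. Against that floor Cox7b was at least 842-fold higher than Cox7b2 in library 1 and at least 858-fold higher in library 2. Cox8a was at least 713-fold and 759-fold higher than Cox8b and at least 938-fold and 998-fold higher than Cox8c. Ndufa4 was at least 1915-fold and 1982-fold higher than Ndufa4l2. All 5 muscle markers were also undetected, Acta1 highest at 0.16 TPM.

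Cox7a was the family of complex IV with 2 high members. Cox7a2 held 52.9% ± 1.28 of the family's TPM and Cox7a2l 46.8% ± 1.06, with Cox7a1 at 0.255% ± 0.220. The order of the high pair depended on the scale. On estimated counts, which are not corrected for length, Cox7a2 had 33.7% and 32.3% and Cox7a2l 66.2% and 67.4%. On M4 counts Cox7a2 had 71.8% ± 2.49 and Cox7a2l 27.1% ± 1.61.

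**Figure D2:**
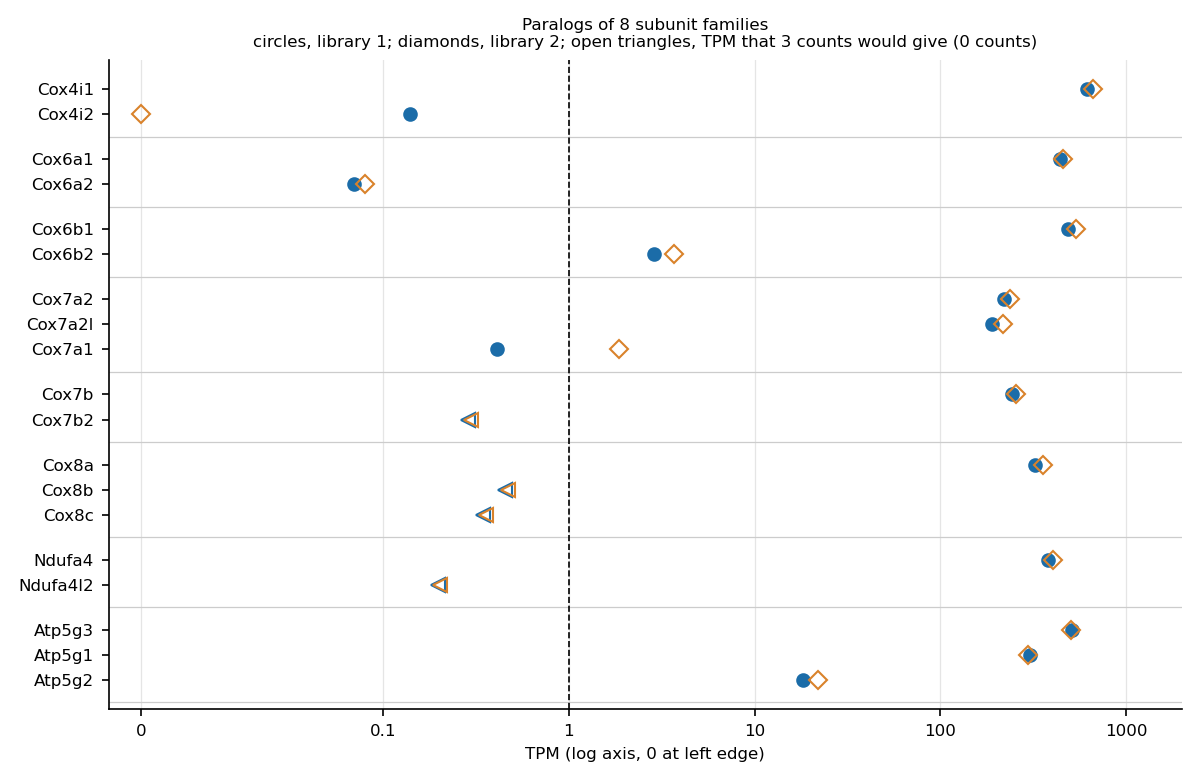
TPM (log axis, 0 at the left edge) of the paralogs in 8 subunit families, library 1 as filled circles and library 2 as open diamonds. Open triangles stand at the TPM that 3 counts would give for the 4 genes with 0 counts, and the dashed line marks 1 TPM. Ubiquitous genes sit above 180 TPM and tissue forms of complex IV below 4 TPM, with Atp5g2 between them.

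The c ring, the rotor of ATP synthase, is encoded by 3 genes whose mature protein is the same and whose import signals differ. Counted back from the end of the coding sequence to the first difference, 78 codons or 234 bases gave the same amino acids in the 3 genes. This stretch was thus defined by that identity, and it holds the mature protein. The bases were less alike: Atp5g1 and Atp5g2 were 84.6% identical there, Atp5g1 and Atp5g3 78.6%, and Atp5g2 and Atp5g3 77.4%. Upstream of this stretch identity was 59.8% to 63.2%. The first 90 bases of the shared part, from the GENCODE M21 transcripts, are shown because these base differences are what lets reads be assigned to 1 of the 3 genes. Capitals mark positions where the 3 are not all alike.
Atp5g1: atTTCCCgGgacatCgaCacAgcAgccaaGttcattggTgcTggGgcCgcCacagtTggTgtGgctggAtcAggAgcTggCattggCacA
Atp5g2: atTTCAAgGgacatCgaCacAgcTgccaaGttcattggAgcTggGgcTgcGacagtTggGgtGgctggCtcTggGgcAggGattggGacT
Atp5g3: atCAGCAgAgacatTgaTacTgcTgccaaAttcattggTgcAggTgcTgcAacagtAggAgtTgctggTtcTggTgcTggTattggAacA

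By the deposited values Atp5g3 was the main source of the c subunit, with 511 and 504 TPM, followed by Atp5g1 with 304 and 296 TPM. Atp5g2 (chr15:102662864-102672352) had 18.3 and 22.0 TPM. The shares were 61.3% ± 0.003, 36.3% ± 0.34 and 2.43% ± 0.34. The coding sequence of Atp5g2 is matched at 100% identity over its whole length by Gm10175, a transcribed processed pseudogene (chr7:23946646-23947290), which the table lists at 270 and 312 TPM, so reads from that stretch cannot be told apart by sequence. Gm10175 and 1 more copy held 93.1% and 92.7% of the estimated counts of Atp5g2 and its copies together, and the posterior SD of Atp5g2 was 20.7% and 15.8% of its count. With the reads of near-identical copies added to their genes, the shares became 44.1% ± 1.26 for Atp5g3, 28.9% ± 1.03 for Atp5g1 and 27.0% ± 2.28 for Atp5g2. The order of Atp5g3 over the other genes held, while in these sums the order of Atp5g1 and Atp5g2 changed between libraries. The sums add TPM of rows of unlike length, so the order of Atp5g1 and Atp5g2 is uncertain.

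A transcript of another gene matching at least 80% of the coding sequence at 95% identity or more was found for 20 of the 85 genes, 36 copies in all, 31 of them annotated as processed pseudogenes. All 20 were among the 78 detected genes, or 25.6% of them, beside 10.1% of the 10551 detected protein-coding genes searched in the same way. For most of the 20 the copies took few reads. For 5 they took over 30% of the joint estimated counts in both libraries: Atp5g2, Ndufb4, Atp5l, Cox7c and Ndufa12.

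Ndufb4 (chr16:37647170-37654453), an accessory subunit of the membrane arm, was the lowest gene of complex I as listed. Its copy Ndufb4c (chr15:73809507-73809896) is identical to it at all 387 coding bases, and the opening 120 bases are shown as the sequence that cannot tell them apart.
Ndufb4 and Ndufb4c: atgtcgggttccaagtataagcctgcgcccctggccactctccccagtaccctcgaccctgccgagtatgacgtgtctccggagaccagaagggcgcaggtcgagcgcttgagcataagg

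The pseudogene was listed at 160 and 178 TPM and Ndufb4 at 55.8 and 48.7 TPM, so that 68.3% and 72.4% of the joint counts went to the copy. Summed, the pair stood at 215 and 227 TPM, above the median of complex I. Atp5l had 281 and 293 TPM itself and 627 and 665 TPM with its 8 copies, nearly all of it from Gm10221 (chr5:24581554-24581862). Cox7c went from 218 and 217 TPM to 595 and 626 TPM with Gm12338 and Gm10012 added. Ndufa12 went from 83.0 and 83.4 TPM to 156 and 160 TPM with Gm15920. These sums add TPM of rows of unlike length, so they are not levels on the gene's own length. For Uqcr10, 25.4% and 16.3% of the joint counts lay on 4930481A15Rik, a gene typed antisense whose transcript holds the matching stretch. That gene had 251 and 156 M4 counts of its own. The posterior SD of Uqcr10 was 0.021% and 0.036% of its count. Whether any of the counts on 4930481A15Rik come from Uqcr10 was not tested, and they are kept where copies are added.

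**Figure D3:**
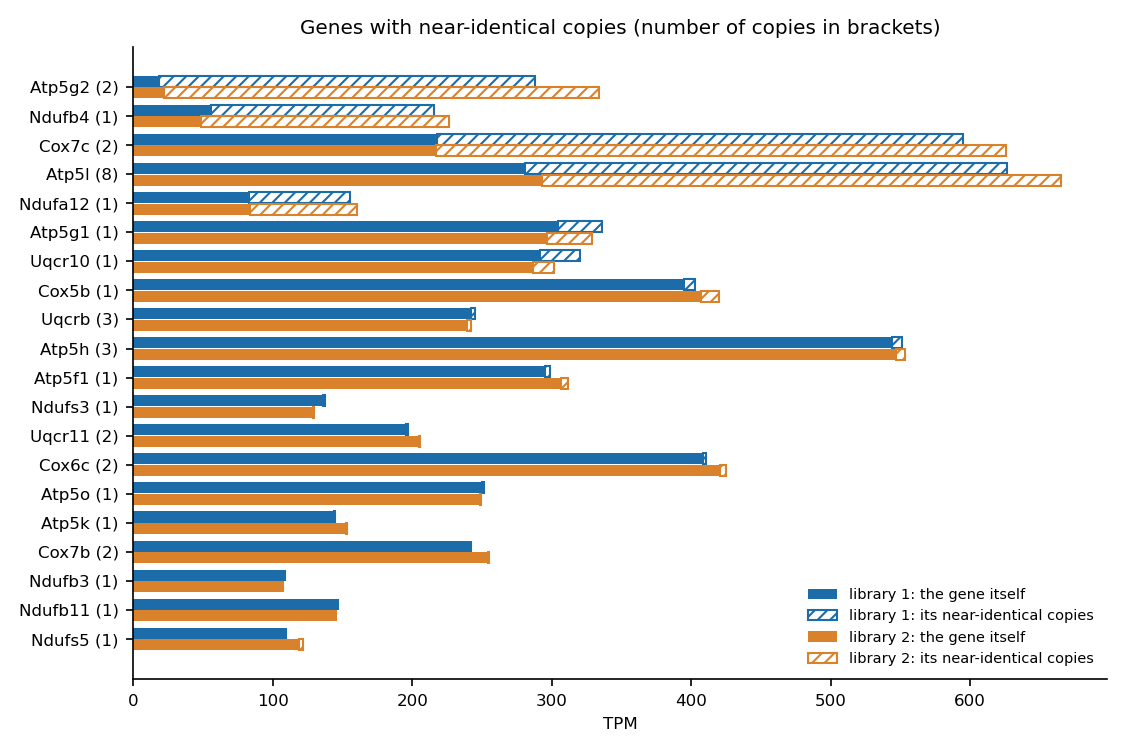
TPM of the 20 subunit genes with near-identical copies (solid bars) and of those copies stacked on them (hatched bars), library 1 in blue and library 2 in orange, ordered by the share of the copies. The hatched part is longer than the solid part for Atp5g2, Ndufb4, Cox7c and Atp5l, and short or absent for most other genes.

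The older M4 tables of the same libraries count reads from genome alignments in whole numbers and total 9576557 and 8937887. Across 11918 genes with at least 10 estimated counts, the M4 count was at the median 44.1% and 45% of the M21 estimate. Over 77 subunit genes it was 21% and 21.4%. The 57 without a near-identical copy had 25.6% and 26.4% and the 20 with one had 9.46% and 9.88%. In 4 of the 77 genes the M4 count was under 5% of the M21 estimate in both libraries, namely Atp5l, Atp5g1, Cox7c and Cox7a2l. All genes compared gave 4.83%, so this number was near the background. Atp5l fell to 1.04% and 0.741%, Atp5g1 to 0.916% and 1.03%. Atp5g2 at 4.79% and 5.33% was just outside. Highly counted genes had low shares in general: over all genes the median in library 1 went from 52.3% at 100 to 1000 counts to 14.5% at 10000 counts or more. Subunit genes were lower than all genes in each count class of library 1. They had 24.1% beside 45.2% at 1000 to 2500 counts and 20.3% beside 39.9% at 2500 to 5000. At 5000 to 10000 they had 15.3% beside 31.1%, and at 10000 or more 12.3% beside 14.5%. The part of shared reads in these shares was not tested.

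Of the 85 genes 38 overlap another annotated gene, and 36 of these are detected, 46.2% of the 78, beside 56.3% of all detected protein-coding genes. A neighbour with 10% or more of the gene's own count in library 1 was found for 15 of the 78 (19.2%), beside 21.1%, so both shares were near the background. With undetected genes included it was found for 17 of the 85, among them Ndufa4l2, which had no counts itself. Atp5j overlaps Gabpa on the opposite strand, which had 3378 and 2980 counts beside 5115 and 5132 for Atp5j. Ndufs1 overlaps Eef1b2 (4748 and 5557 counts beside 4276 and 3944), and Cox6c overlaps Vps13b (5637 and 4648 beside 4250 and 4176). The strand of the reads is not stated in the labels, so reads from the shared stretches cannot be told apart by strand.

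The transcript tables assigned the reads of many subunit genes to transcripts that are not annotated as protein-coding. Of 59 detected members with transcripts of several types, 17 had a leading transcript by TPM that is not annotated protein-coding, beside 15.5% of 8612 such detected genes. By estimated counts the number was 16, beside 10.1%. These were 8 processed transcripts, 6 retained introns and 3 targets of nonsense-mediated decay by TPM. The shares were similar in both libraries in the clearest cases. Ndufa3-204, typed nonsense-mediated decay, held 90.8% and 89.8% of Ndufa3. Cox7a2-203, a processed transcript, held 88.7% and 87.6% of Cox7a2. Ndufb4-202, a retained intron, held 92.5% and 88.0% of Ndufb4. That share covers only reads left to Ndufb4, since its identical copy Ndufb4c held 68.3% and 72.4% of the joint counts. For Atp5l and Cox7c, also among the 17, copies held 48.4% and 44.8% of the joint counts in library 1. How far the copies shift these transcript shares was not tested.

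Other leads of this kind were Cox7b-203 at 77.9% ± 0.52, Atp5j-208 at 74.0% ± 2.43, Cox5b-205 at 69.0% ± 1.29, Ndufs7-206 at 64.2% ± 1.52 and Atp5f1-203 at 63.7% ± 1.76. In others no transcript led clearly: Ndufa5-204 had 45% of its gene in library 1 and 58.8% in library 2, and Ndufa10-205 had 25.7% ± 3.02. These shares are estimates for transcripts of one gene that overlap through most of their length.

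Among coding transcripts, Ndufv3 and Atp5c1 have forms that differ in the protein. Ndufv3-202, with a coding sequence of 312 bases, held 81.6% ± 1.77 of the gene's TPM and 58.4% ± 2.8 of its counts. Ndufv3-201, which adds a long exon and codes over 1404 bases, held 13.2% ± 0.91 of TPM and 32.5% ± 1.4 of counts. For Atp5c1, the gamma subunit, Atp5c1-203 (894 coding bases) held 81.2% and 81.2% and Atp5c1-201 (891 coding bases) 17.9% and 17.5%, so the longer form led about equally in both libraries.

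The libraries themselves differed slightly. On estimated counts scaled by edgeR's TMM factors, the median log2 ratio of library 2 over library 1 was 0.09 over the 78 detected genes. It was above 0 in 68 and below 0 in 10, while 50.0% of all 13275 detected genes were higher in library 2. Only the second Atp5o row passed 1.5-fold, at a log2 ratio of 0.69 from 100 and 149 counts, beside 7.77% of detected genes (4.41% upward and 3.37% downward in library 2). Next were Cox6b2 at 0.55, Atp5g2 at 0.38, and Ndufa11 and Cox6b1, both at 0.27. At the other end were Atp5s at -0.16, Sdha at -0.14, and Ndufa9 and Uqcrc1, both at -0.07, then Ndufb4 at -0.06.

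The ratio went with gene length. It was 0.18 at the median of the 21 genes under 500 bases, 0.13 from 500 to 700, 0.06 from 700 to 1000 and 0.02 from 1000 bases on. All detected protein-coding genes, which include these, gave 0.18, 0.12, 0.08 and -0.02 in the same classes. Across the 78 genes Pearson's r of the log2 ratio with log2 length was -0.45 and Spearman's rho -0.48, where the points share both libraries and genes are not replicates.

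**Figure D4:**
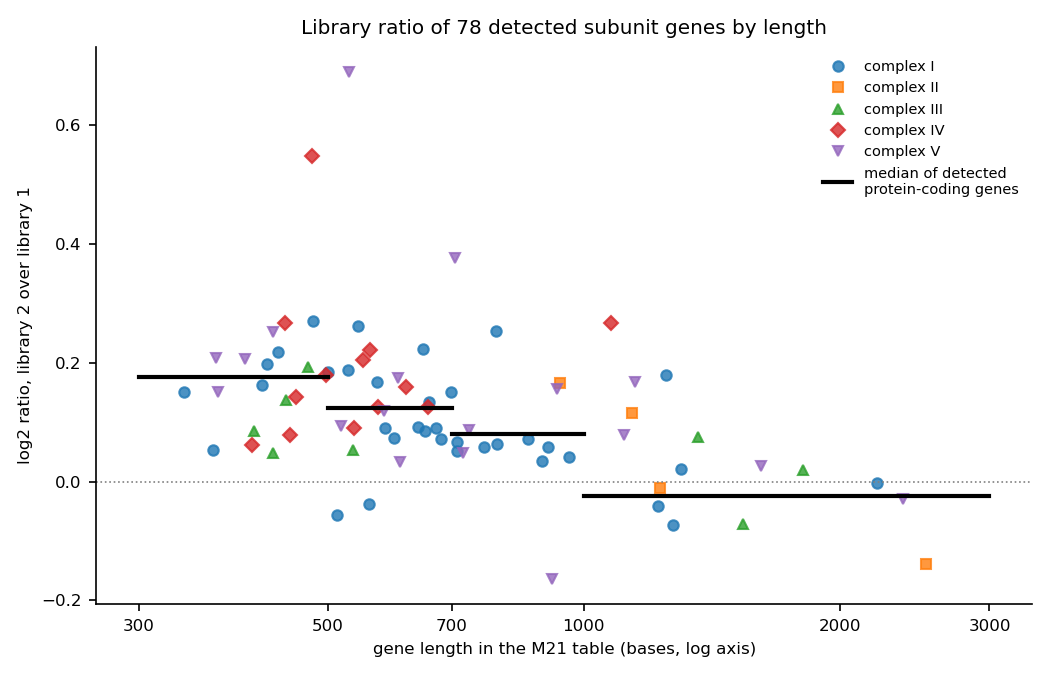
Log2 ratio of library 2 over library 1 (TMM-scaled estimated counts) against gene length in bases (log axis) for the 78 detected subunit genes, with 1 symbol per complex. Black bars give the median of detected protein-coding genes in 4 length classes (the last class is open upward), from 0.18 for the shortest to -0.02 for the longest, and most subunit genes lie near the bar of their class.

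The partners of these subunits were read from lists. The 13 subunits encoded by mitochondrial DNA were all detected, with a median of 1317 TPM, from mt-Nd4l at 217 and 280 TPM to mt-Co3 at 5399 and 5954 TPM. They took 2.31% and 2.51% of TPM, more than the 85 nuclear genes together. In complex IV, mt-Co1 had 2392 and 2769 TPM and mt-Co2 3204 and 3234 TPM. The nuclear median there was 390 TPM over the 11 ubiquitous genes and 223 TPM over all 20, which include the undetected isoforms.

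Assembly factors, which build the complexes and do not remain in them, were all detected, 51 of 51 matched genes, but at a median of 32.5 TPM. They ran from Sdhaf3 at 2.29 and 1.62 TPM to Cox17, a copper chaperone of complex IV, at 161 and 148 TPM. Only 4 reached 100 TPM in both libraries, and these were Cox14, Cox16, Cox17 and Cox20, all factors of complex IV. Coa1 found no match by symbol. The median library ratio of the factors was -0.00.

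Of 10 carriers and related genes 8 were detected. Ucp2, a carrier of the inner membrane abundant in immune cells, had 1467 and 1463 TPM, above Atp5b. The ADP and ATP exchanger was read mainly from Slc25a5 (572 and 597 TPM), with Slc25a4, the form of heart and muscle, at 86.4 and 80.4 TPM and the testis form Slc25a31 at 0.02 and 0 TPM. Slc25a3, which brings in phosphate, had 307 and 314 TPM. Ndufab1, the acyl carrier subunit of complex I, had 160 and 192 TPM, close to the complex I median. Cycs, cytochrome c, had 19.4 and 21.3 TPM, and its testis paralog Cyct 0.08 and 0.08 TPM. Reads of near-identical copies were not looked at for the genes of this list, so their part in the level of Cycs was not tested.

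Factors known to act on nuclear genes of respiration were detected for 10 of 11. Tfam, which packages and transcribes mitochondrial DNA, was highest at 89.4 and 91.2 TPM. Nrf1 had 58.6 and 57.4 TPM, Gabpb1 61.1 and 50.6 TPM, Gabpa 38.3 and 36.7 TPM and Yy1 12.0 and 12.5 TPM. The coactivator Ppargc1a, prominent in brown fat and muscle, had 9 counts in library 1 and none in library 2 (0.15 TPM and 0), while its relative Ppargc1b had 10.01 and 8.51 TPM.

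**Figure D5:**
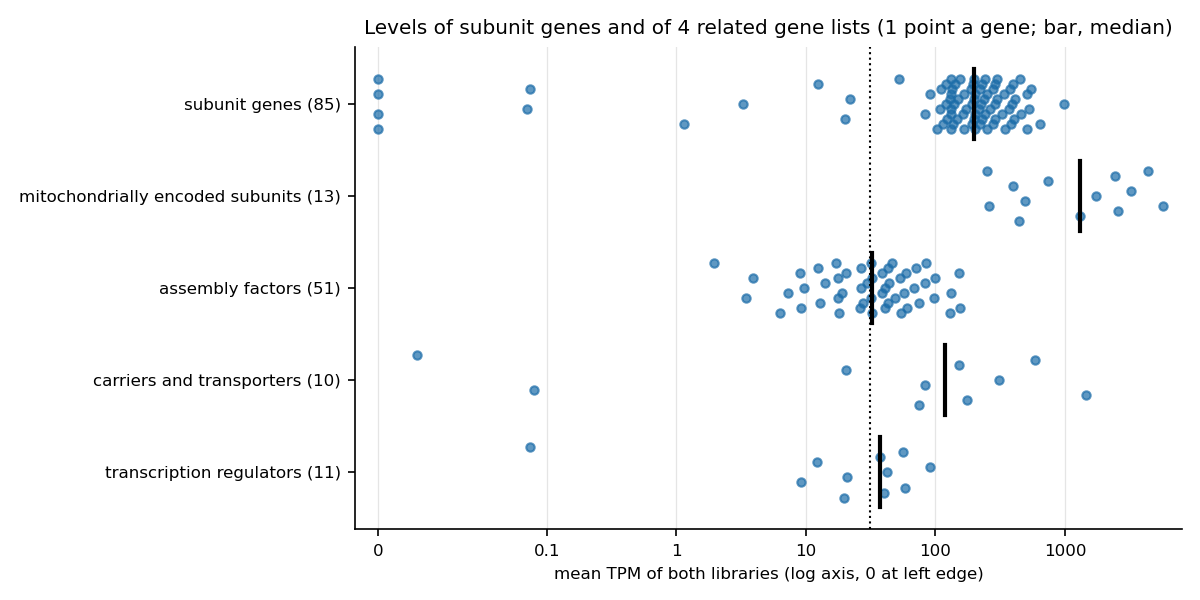
Mean TPM of both libraries (log axis, 0 at the left edge) for the 85 subunit genes and 4 lists of related genes, 1 point per gene, with a bar at each median and a dotted line at the median of detected protein-coding genes. The subunit genes center on 197 TPM, the mitochondrially encoded subunits on 1317 TPM and the assembly factors on 32.5 TPM.

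Promoters were read from RefSeq on GRCm38.p6, from 250 bases before to 50 after the start, for 68 of the 84 symbols. Letters known for 3 factors of this pathway were searched on both strands. GCATGCGC, the core of the NRF-1 motif, was in 10 of 68 windows (14.7%), in 6.65% of 8416 windows of detected protein-coding genes and in 3.05% of all 27025 windows. AAGATGGC, of YY1, was in 10 (14.7%), beside 5.93% and 3.19%. CCGGAAG, of the ETS factors that include GABPA, was in 16 (23.5%), beside 22.8% and 9.93%. At least 1 of the 3 was in 30 windows (44.1%), beside 31.9% and 14.9%.

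The full NRF-1 letters GCGCATGCGC, which contain the core, were in 5 of 68 windows (7.35%), in 2.65% of those of detected genes and in 1.07% of all. The 4 windows that hold them wholly before the start are shown with 25 bases on each side, in the direction of the gene and with the motif in capitals.
Atp5g2 (chr15:102671055-102671114, minus strand): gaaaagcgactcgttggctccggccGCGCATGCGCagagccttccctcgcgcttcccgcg
Atp5k (chr5:108434415-108434474, minus strand): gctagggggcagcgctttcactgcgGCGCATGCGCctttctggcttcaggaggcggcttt
Cox6a1 (chr5:115349086-115349145, minus strand): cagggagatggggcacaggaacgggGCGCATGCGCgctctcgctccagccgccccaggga
Ndufa11 (chr17:56717677-56717736, plus strand): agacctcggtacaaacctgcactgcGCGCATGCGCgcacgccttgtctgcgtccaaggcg

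The genes that share these letters did not share a level. Cox6a1 had 439 and 456 TPM, Ndufa11 208 and 237 TPM, Atp5k 144 and 153 TPM and Atp5g2 18.3 and 22.0 TPM, or 288 and 334 TPM with its copies. Uqcrc1, whose window holds the letters after the start, had 296 and 282 TPM. A match is a description of the window and not a site of binding, since no binding was measured here.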

How the data were processed

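Per the labels' file lists, every table is on mm10, and the M21 gene and transcript tables come from transcriptome alignments. The authors' estimated counts in them share ambiguous reads among features by a model. Next to these stand the authors' TPM, posterior mean TPM and FPKM, the last scaled by length and library size, per the file headers. The third deposited table holds whole-number counts per gene on GENCODE M4, from genome alignments. What aligned, quantified and counted the reads, in which version and on which strand, is not given in the sources used here. The effective length was the length less 49 bases, so no fragment length distribution entered TPM. Rows that name no gene took 0.197% and 0.212% of estimated counts and were left out.

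Members, lists and the rule for named genes were chosen with earlier results of these data known. The rule for members itself uses symbol and gene type only. Named with values are all isoform family members, undetected members, the highest and lowest of each complex, the 5 largest library ratios each way, and the ends of each list, and other members were named for completeness, except that 1 gene is not reported here. With 1 library on each side of the library comparison no test has residual degrees of freedom, so no p-value is given and a call means past 1.5-fold. Estimated counts were rounded for the TMM factors of edgeR 4.0.16, which used genes whose counts sum to 10 or more. The ratio uses a prior count of 0.5, and DESeq2 1.42.0 size factors were an alternative. Near-identical copies were found with BLAST 2.17.0 on GENCODE M21 transcripts, and exact intervals came from scipy 1.17.1. Protein sequences were not used here, so the planned comparison of paralog proteins was not run. Alternatives changed the unit, the detection minimum, the scaling, the prior count and the library left out. The TPM ratios of 1 subunit gene to another were not put through them.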

Additional observations from a re-analysis of the deposited data

Results flagged for a closer look

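Some rows carry the symbol of a subunit but are not protein-coding genes, so the values above leave them out. The rows given here had more than 3 counts in both libraries, the floor set above for a count of 0. There are no control samples in the series. Ndufb1-ps (chr12:101968090-101977068), named as a pseudogene of a complex I subunit and annotated as a long noncoding gene at a bidirectional promoter, had 1479.62 estimated counts in library 1 and 1403.57 in library 2, or 141 and 137 TPM. That level is within the range of complex I subunits. No protein-coding row of M21 named Ndufb1 entered the set. Ndufb4c had 1150.92 and 1244.84 estimated counts. It matches all 387 coding bases of Ndufb4, so the source of these reads cannot be told apart. Cox6c2, a near-identical copy of Cox6c, had 9.16 and 13.73, and Ndufs6b had 5.55 and 6.11.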

How the results depend on the processing

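No paired analysis was possible because the series holds 1 group. The number of detected genes was 76 to 79 under every alternative, and the number of non-coding leading transcripts 16 to 19. Leaving out a library gave 4.73 and 5.29 for the ratio of complex I to the detected median, and 9.64 and 10.8 for complex V. Complex IV moved from 7.18 to 10.98 with detected members only, by construction, which placed it above complex V, and to 7.69 with reads of near-identical copies added. The share of all expression moved from 1.89% of TPM to 0.871% of estimated counts, which are not corrected for length. Isoform shares moved most for Cox7a2, 52.9% of TPM but 33.0% of estimated counts and 71.8% of M4 counts, and for Atp5g3, 61.3% of TPM, 65.3% of estimated counts, 61.0% of posterior mean TPM, 95.1% of M4 counts and 44.1% with copies added. Cox6b1 moved to 99.2% by posterior mean TPM and 96.1% by M4 counts. Cox6a1 had 99.98% of estimated counts, 99.97% of posterior mean TPM and 100.0% of M4 counts, and Cox4i1 99.97% and 99.86% in the last 2. Posterior mean TPM gave 99.96% for Cox7b, 99.92% for Cox8a and 99.94% for Ndufa4. The median library ratio moved from 0.09 to 0.047 on TPM and to 0.13 without genes that have copies. At 2-fold 0 genes passed, and with no filter on low counts 3 did, since Cox4i2 and Cox7a1 then entered. The alternatives that concern near-identical copies were chosen after seeing the data. Except where a reason is given, the cause was not tested. Of 100 alternative values 77 stayed within the spread or limit set, and this number is no measure of robustness. Leaving out a library kept the TPM share and the isoform shares within the spread of the 2 libraries by construction. Complexes without undetected genes, or without near-identical copies, could not move under the alternatives that concern these. Depth limits the tissue isoforms, whose levels rest on 0 to 34 counts, and no alternative can supply the missing biological replicates.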
